A study of Homo sapiens with 4 samples.

Results

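The genes described here build or regulate the primary cilium: 45 genes of intraflagellar transport, the BBSome, the transition zone, the basal body and the axoneme. They were chosen from a list proposed with the knockdown result of these data in view, so every knockdown value of a listed gene below is a description and carries no test. Circular RNA reads were summed over every circle whose annotation names the gene exactly and which the circle caller did not type as antisense. Of the 45 genes, 37 had at least 1 such circle, among 14794 named host genes in the whole table. They held 965 listed circles, 889 of them with at least 1 count, and 7199 counts.

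All libraries are of the established breast cancer cell line MDA-MB-468 (human), in a derivative made radiation resistant with a total of 50 Gy given in fractions. The control group was 2 biological replicates with a control hairpin (shCtrl), and the knockdown group was 2 biological replicates with stable knockdown of HNRNPL (shHNRNPL), an RNA-binding protein that regulates splicing. Both groups therefore carry the radiation resistance and a hairpin, and the extraction protocol names 1 HNRNPL hairpin. The series was designed to find circular RNA that depends on HNRNPL, with nanopore sequencing of cDNA from the Induro reverse transcriptase, an enzyme that can copy a circular template repeatedly. HNRNPL itself had 0 circles in the table, so its knockdown rests on the labels.

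A primary cilium is a single antenna of microtubules that grows from the mother centriole, the basal body, and receives signals such as Hedgehog. Kinesin-2 carries cargo trains towards its tip and dynein-2 carries them back, with IFT-B and IFT-A as the train complexes and the BBSome as an adaptor for membrane proteins. A gated region at its base, the transition zone, decides what enters. A circular RNA forms when the splicing machinery joins the end of an exon (the donor) to the start of the same or an upstream exon (the acceptor), which closes the exons between them into a ring. Its level depends on the transcription of the host gene, on the back-splicing and on the stability of the ring, and these cannot be told apart in counts of circles alone.

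The 4 libraries held between 282737 and 556578 circle counts. Values below are counts per 100000 library counts unless raw counts are named, and a gene with 0 counts could still lie below a level of 0.539 to 1.06 per 100000, the value of 3 counts in the deepest and the shallowest library. Control replicate 1 stands apart from the other 3 libraries: circles that the caller types as intron made up 19.7% of its counts against 9.93% to 10.6% elsewhere, and antisense circles 6.79% against 2.38% to 2.69%. The control replicates also differed more from each other than the knockdown replicates did, with log2 levels of host genes correlated at 0.763 over 3869 genes and 0.970 over 2567 genes. Values without control replicate 1 are therefore given for the genes the results turn on. Marker genes could be read only through their circles. Of 8 epithelial marker genes 5 had circles, summing to 35.6 and 18.7 per 100000 in the control libraries and to 12.7 and 12.0 in the knockdown libraries, while KRT8, KRT18 and KRT19 were at 0. All markers of fibroblasts (5 genes), leukocytes (4 genes), endothelium (3 genes) and multiciliated epithelium (5 genes, FOXJ1 among them) were at 0 in every library. The part of the epithelial difference in the results below was not tested. In such bulk libraries fewer cells with a cilium and less circular RNA per cell cannot be told apart.

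Circles of the cilium genes together were more abundant in the knockdown libraries. Their summed level was 276 and 357 per 100000 in the control libraries and 568 and 588 in the knockdown libraries, a ratio of group means of 1.82. SPAG16, KIFAP3 and DYNC2LI1 held much of that difference: without these 3 genes, a choice made after seeing the data, the sums were 269, 344, 435 and 428, and the log2 ratio of group means went from 0.87 to 0.49. Counts were concentrated in few genes, since the 16 genes with at least 100 counts held 90.6% of all counts of the cilium genes.

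**Figure D1:**
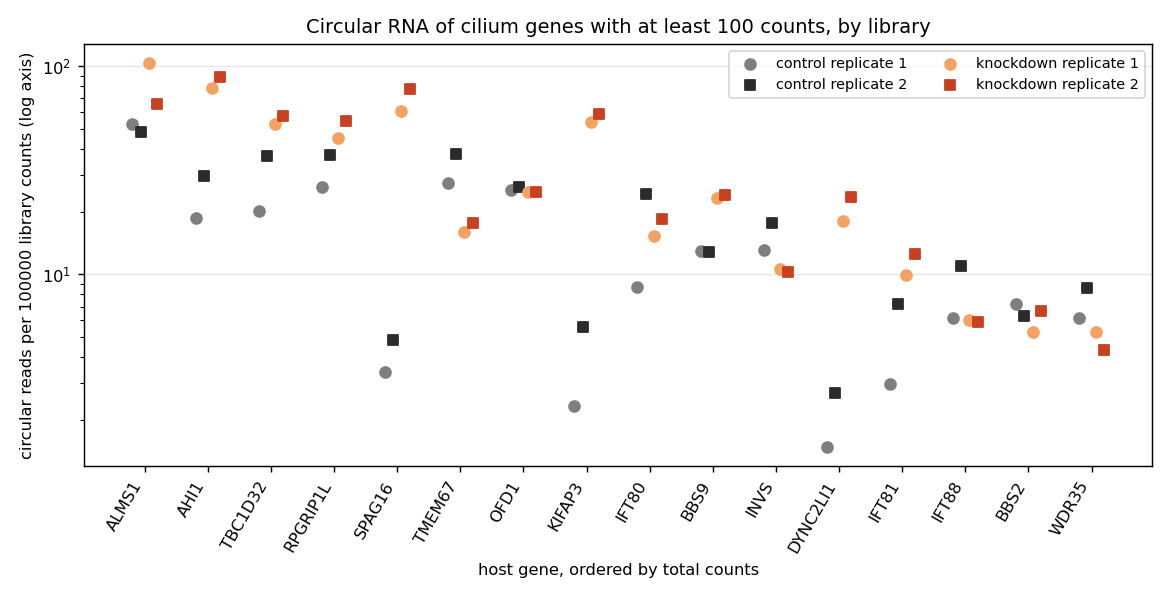
Circular reads per 100000 library counts (log axis) for the 16 cilium genes with at least 100 counts, 1 symbol for each library. SPAG16, KIFAP3 and DYNC2LI1 show the widest gaps between the grey and black control symbols and the orange and red knockdown symbols, TMEM67 is lower in both knockdown libraries, and the symbols of OFD1 nearly coincide.

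Host genes were compared with edgeR's quasi-likelihood test over all 8379 genes with at least 10 counts, 32 of them cilium genes. This fit uses TMM scaling, which moved the median of all genes from -0.58 with library totals to a log2 fold change of -0.26, and the fold changes below are on the TMM scale. Past an adjusted p of 0.05 lay 3 cilium genes, all higher in the knockdown, against 0.442% of all genes tested, and 0 lower, against 0%. The rule used this contrast, so nothing is read from that count. The median log2 fold change of the 32 genes was 0.26, 20 of them lay above 0 (40.4% of all genes tested did), and 22 lay above the median of all genes. With library totals the median of the 32 was -0.02 and 16 lay above 0. The groups did not overlap for 13 genes that were higher in the knockdown and 8 that were lower, against 15.3% and 36.7% of all genes tested, and for the remaining 11 they overlapped. Without knockdown replicate 1, or without knockdown replicate 2, 0 cilium genes and 0 host genes of any kind passed, while the log2 fold changes were 4.56 and 4.15 for SPAG16, 4.21 and 4.01 for KIFAP3 and 3.80 and 3.35 for DYNC2LI1. At an unadjusted p under 0.05 lay 352 and 282 host genes in these fits. All 4 libraries with edgeR's newer dispersion estimate gave 0 cilium genes as well. At an unadjusted p under 0.05 lay 10 of the 32 in that fit, and 1253 of all 8379 genes. Without control replicate 1 the median log2 fold change was 0.65 for the cilium genes tested and 0.02 for all genes. Without control replicate 2 these medians were 0.97 and -0.13. In both fits the lone control library was assumed to vary as the knockdown pair does.

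**Figure D2:**
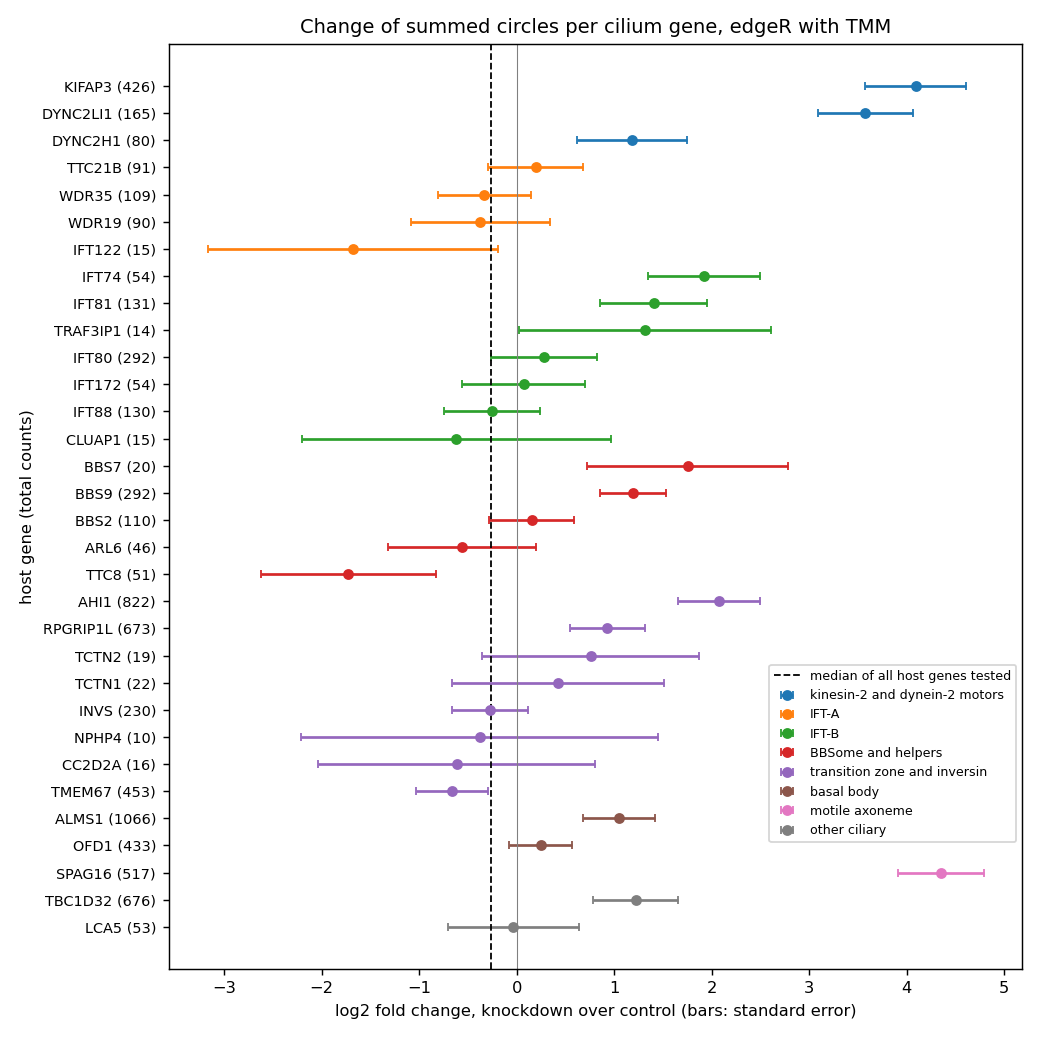
Log2 fold change of the summed circles of each of the 32 tested cilium genes, knockdown over control, from edgeR with TMM scaling, with bars of 1 standard error and total counts in brackets; the dashed line is the median of all host genes tested (-0.26). KIFAP3, DYNC2LI1 and SPAG16 stand at 4.09, 3.58 and 4.35, and most genes with few counts have bars that cross 0.

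Among the groups of cilium genes, the motors had the largest difference in summed level per 100000. KIFAP3, DYNC2LI1 and DYNC2H1 together had 6.14 and 12.8 circular reads per 100000 in the control libraries and 77.8 and 89.9 in the knockdown libraries. KIFAP3, the accessory subunit that links the kinesin-2 motor to cargo, had 11 and 31 raw counts in the control libraries and 153 and 231 in the knockdown libraries. Both knockdown libraries lay far above both control libraries, at 56.6 ± 3.56 against 3.95 ± 2.29 per 100000 (SD, n = 2). On the log2 scale the fitted fold change was 4.09 ± 0.52 (SE), and 3.58 and 5.16 without control replicates 1 and 2. DYNC2LI1, the light intermediate chain of dynein-2, had 7 and 15 raw counts in the control libraries and 51 and 92 in the knockdown libraries. Per 100000 it stood at 2.09 ± 0.858 in the control and 20.8 ± 3.90 in the knockdown group (SD, n = 2). The fitted difference was 3.58 ± 0.49 (SE) on the log2 scale, and 3.19 and 4.37 without control replicates 1 and 2. DYNC2H1, the heavy chain that carries the motor domain of dynein-2, was sparse, with 11, 25, 16 and 28 raw counts in the order control 1, control 2, knockdown 1 and knockdown 2. Its knockdown libraries were the higher ones, but its log2 fold change of 1.18 ± 0.56 (SE) did not pass the threshold.

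SPAG16, a protein of the central apparatus of motile axonemes, had 16 and 27 raw counts in the control libraries and 172 and 302 in the knockdown libraries. Its log2 fold change of 4.35 ± 0.44 (SE) was the largest among the cilium genes, and it was 4.07 and 4.92 without control replicates 1 and 2. HYDIN, the other listed gene of the motile axoneme, had 0 circles, so the SPAG16 values stand alone for that group.

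In each of these 3 genes a single circle or a single acceptor carried most of the difference. The leading circle of a gene is the one with the most counts over all 4 libraries. Its share in the knockdown libraries is thus partly set by that choice. The leading KIFAP3 circle was chr1:169978085-170031984 on the minus strand (coordinates in the build GRCh38). It was counted 3, 18, 140 and 201 times in the order above. For this circle the caller lists 2 internal isoforms, the first of 9 exons, and a length of 1155 nt. The circle held 85.0% of all KIFAP3 counts. Its share of KIFAP3 counts was 27.3% in control replicate 1 (exact 95% Clopper-Pearson interval 6.02% to 61.0%, which here and below covers counting error only) and 58.1% in control replicate 2 (39.1% to 75.5%). In the knockdown libraries the share was 91.5% (85.9% to 95.4%) and 87.0% (82.0% to 91.1%). The caller gives AC-GT as the splice motif of this circle, in place of the AG-GT that 95.6% of the exon circles of the cilium genes and 90.1% of all exon circles carry. The other 15 KIFAP3 circles with counts were sparse, and the largest of them, at chr1:169972513-169992255, had 0, 0, 3 and 7 counts.

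The SPAG16 difference was tied to 1 acceptor. The start of the exon at position 213310059 of chromosome 2, 25.6 kb inside the gene, was the acceptor of 8 circles with 3, 19, 159 and 276 counts, which made up 88.4% of all SPAG16 counts. Joined to 3 donors downstream, it gave the 3 most abundant circles. The circle of 5 exons and 553 nt that ends at 213364145 had 0, 6, 93 and 150 counts. A circle of 6 exons and 663 nt, ending at 213375119, had 1, 7, 44 and 78 counts. The circle of 4 exons and 483 nt that ends at 213350645 had 1, 3, 12 and 29 counts. In all 3 both knockdown libraries were above both control libraries. A circle with the same donor as the first, but with the acceptor at 213296040 further upstream, had 8, 1, 4 and 7 counts, so its groups overlapped.

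DYNC2LI1 showed a comparable split by donor. Its acceptor at position 43794457 of chromosome 2 was used by 6 circles with 3, 13, 46 and 78 counts. Joined to the donor at 43805246, it gave the leading circle of 7 exons and 673 nt, with 0, 2, 32 and 63 counts and 58.8% of all DYNC2LI1 counts. Joined to the nearer donor at 43801709, it gave a circle of 3 listed segments and 1651 nt with 3, 10, 3 and 6 counts, whose groups overlapped. That circle spans less of the gene than the leading circle yet is longer, so it holds sequence that the leading circle lacks. The leading circle thus held 62.7% (exact 95% interval 48.1% to 75.9%) and 68.5% (58.0% to 77.8%) of the DYNC2LI1 counts in the knockdown libraries. In the control libraries, where the gene had only 7 and 15 counts, it held 0% (up to 41.0%) and 13.3% (1.66% to 40.5%).

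**Figure D3:**
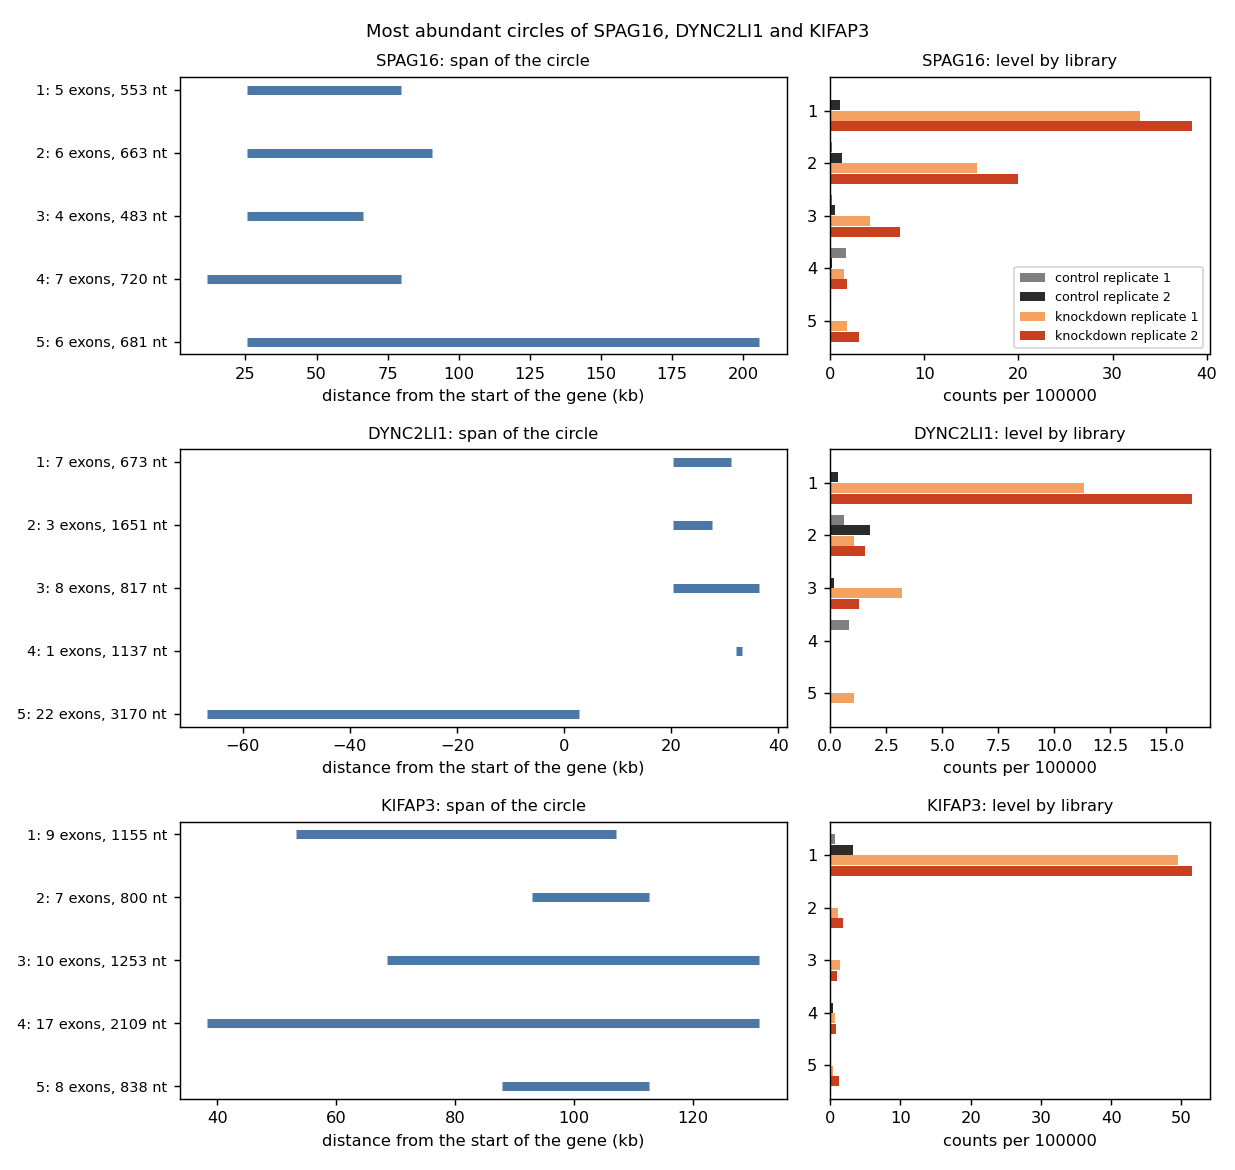
Left panels show the span of the 5 most abundant circles of SPAG16, DYNC2LI1 and KIFAP3 as distance from the start of the gene (kb); right panels show the level of each circle in each library, in counts per 100000. The bars of the first KIFAP3 circle, of the first DYNC2LI1 circle and of the SPAG16 circles that share an acceptor are long only in the knockdown libraries, while the fourth SPAG16 circle and the second DYNC2LI1 circle have overlapping groups.

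Windows of 250 bases before a RefSeq transcript start of these 3 genes (build GRCh38) are shown because these were the 3 genes past the threshold. The letters searched were GTTGCC, part of the X-box bound by RFX factors, which regulate many cilium genes, on both strands, in capitals below.
SPAG16: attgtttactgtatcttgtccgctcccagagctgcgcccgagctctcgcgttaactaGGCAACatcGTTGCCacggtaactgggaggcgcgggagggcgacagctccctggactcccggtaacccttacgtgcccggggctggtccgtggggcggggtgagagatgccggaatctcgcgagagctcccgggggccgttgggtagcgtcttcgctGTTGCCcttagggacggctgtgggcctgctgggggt
KIFAP3: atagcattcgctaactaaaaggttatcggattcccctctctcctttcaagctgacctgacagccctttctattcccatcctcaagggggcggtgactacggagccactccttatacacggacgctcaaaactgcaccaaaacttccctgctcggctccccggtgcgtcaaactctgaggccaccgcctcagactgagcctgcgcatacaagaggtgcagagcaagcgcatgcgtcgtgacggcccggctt
DYNC2LI1: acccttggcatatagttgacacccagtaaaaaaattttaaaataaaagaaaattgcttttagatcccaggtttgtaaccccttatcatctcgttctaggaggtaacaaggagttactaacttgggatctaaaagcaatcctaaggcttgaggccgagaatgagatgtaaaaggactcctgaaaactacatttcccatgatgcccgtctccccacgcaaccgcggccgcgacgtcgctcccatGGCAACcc
The windows lie at chr2:213284214-213284463 on the plus strand for SPAG16, chr1:170074696-170074945 on the minus strand for KIFAP3 and chr2:43773789-43774038 on the plus strand for DYNC2LI1. The KIFAP3 window lies inside the RefSeq span of the gene, which has a start further upstream, and distances in KIFAP3 are measured from that upstream start. SPAG16 had 3 matches, DYNC2LI1 had 1 and KIFAP3 had 0. Of 39 listed genes with a window, 15 held GTTGCC, in 19 of their 50 windows, and of all 35116 windows 10.2% held it. The motif was picked after the data were seen, and a match describes letters only.

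The IFT-A complex returns cargo with dynein-2, and the groups overlapped in the sum of its 5 genes. They summed to 15.2 and 25.0 per 100000 in the control libraries and 16.3 and 12.8 in the knockdown libraries. WDR35 (IFT121) had 29 and 48 raw counts in the control libraries and 15 and 17 in the knockdown libraries, with a log2 fold change of -0.33 ± 0.48 (SE). Both knockdown libraries were lower per 100000, and the sign of the fold change turned, to 0.21, without control replicate 2. TTC21B, WDR19 and IFT122 had log2 fold changes of 0.20, -0.37 and -1.68, from 91, 90 and 15 counts, and none passed the threshold. IFT122 was lower in both knockdown libraries, and the groups of TTC21B and WDR19 overlapped. IFT140 had 2 counts and was not tested.

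Among the IFT-B genes, whose products form the train that enters the cilium, IFT81, IFT74 and the sparse TRAF3IP1 were higher in both knockdown libraries. IFT81 and IFT74 form the pair that binds tubulin cargo. IFT81 had 14 and 40 raw counts in the control libraries and 28 and 49 in the knockdown libraries, and a fitted log2 fold change of 1.40 ± 0.54 (SE), which was 0.90 and 2.50 when control replicates 1 and 2 were left out in turn. IFT74 had 9, 9, 17 and 19 counts and a log2 fold change of 1.92 ± 0.57 (SE), and 90.7% of its counts came from circles typed as intron. Neither passed the threshold. The leading IFT74 circle had 0, 0, 7 and 10 counts, and the most abundant IFT81 circle, of 8 exons, had 2, 8, 5 and 12.

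IFT80 and IFT88 are further subunits of the train. IFT80 had 41, 136, 43 and 72 raw counts, a spread between the control libraries (8.68 and 24.4 per 100000) that held both knockdown values (15.2 and 18.4). All of its counts lie in circles that also name the readthrough gene TRIM59-IFT80, and the sources cannot be told apart. Its log2 fold change of 0.28 ± 0.54 (SE) turned to -0.29 without control replicate 1. IFT88 had 29 and 61 counts in the control libraries and 17 and 23 in the knockdown libraries, and a log2 fold change of -0.25 ± 0.49 (SE), which was 0.52 without control replicate 2. Circles that name another gene held 71.5% of IFT88 counts, and with circles of 1 gene only the value was -0.92. IFT172, TRAF3IP1 (IFT54) and CLUAP1 (IFT38) had 54, 14 and 15 counts in all and log2 fold changes of 0.07, 1.31 and -0.62. Of CLUAP1 counts, 80% lay in circles that also name another gene. Per 100000, IFT88 and CLUAP1 were lower in both knockdown libraries. IFT57 and TTC26 had no circle listed under these names.

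The genes of the BBSome summed to 31.8 and 25.9 per 100000 in the control libraries and to 34.0 and 36.1 in the knockdown libraries. BBS9, a scaffold subunit of that complex, was its most abundant gene. It had 61 and 71 raw counts in the control libraries and 66 and 94 in the knockdown libraries, levels of 12.9, 12.8, 23.3 and 24.1 per 100000 that replicated closely. Its log2 fold change was 1.19 ± 0.33 (SE), but circles that name another gene beside it held 69.2% of its counts, and with circles of 1 gene only the value was -0.04. The donor at position 33388144 of chromosome 7 was used by 4 BBS9 circles with 12, 30, 44 and 64 counts, whereas the donor at 33273956 had 12, 7, 0 and 2.

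BBS2, another core subunit, had 34, 35, 15 and 26 raw counts and overlapping groups, at a log2 fold change of 0.15 ± 0.43 (SE) that was -0.16 with library totals. Of BBS2 counts, 96.4% lay in circles that also name another gene. TTC8 (BBS8) had 35 counts in control replicate 1 and 9, 2 and 5 in the other 3 libraries, so that 1 library held most of its counts, and its log2 fold change was -1.73 ± 0.90 (SE). BBS7, with 20 counts, had 1.75 ± 1.03 (SE). ARL6, the GTPase that recruits the BBSome to membranes, had 10, 24, 6 and 6 counts. A single ARL6 circle held 0, 21, 0 and 3 of these. BBS4 and BBS10 had 9 and 3 counts in all, and BBS1, BBS5 and BBS12 had no circle.

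The transition zone was the group with the most circles, 298 from 10 genes, and its summed level was 93.6 and 125 per 100000 in the control libraries and 154 and 175 in the knockdown libraries. AHI1 (jouberin), a scaffold of this gate, was its most abundant gene. It had 88, 165, 221 and 348 raw counts, or 18.6, 29.6, 78.2 and 89.1 per 100000, so both knockdown libraries were well above both controls. The log2 fold change was 2.07 ± 0.42 (SE). It did not pass the threshold in the edgeR fit used here. It did in 6 other settings with all 4 libraries: DESeq2, the replicate block, no filter, both stricter count minimums and circles of 1 gene only. It did not with library totals, DESeq2 size factors in edgeR, the newer dispersion method, exon circles only or the first gene named. All settings refit the same libraries, so the passes are not separate support. The log2 fold change ranged from 1.74 without control replicate 1 to 2.74 without control replicate 2.

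In contrast to SPAG16 and KIFAP3, the AHI1 counts were spread over 98 circles, and the largest held 12.5% of them. Of its 6 acceptors with at least 20 counts 5 were higher in both knockdown libraries, and so were 10 of its 11 donors. The acceptor at position 135457713 of chromosome 6, 40.0 kb from the gene start, was used by 11 circles with 13, 75, 121 and 172 counts. It made up 14.8% (exact 95% interval 8.11% to 23.9%) and 45.5% (37.7% to 53.4%) of the AHI1 counts in the control libraries. In the knockdown libraries it made up 54.8% (47.9% to 61.4%) and 49.4% (44.1% to 54.8%), and only control replicate 1 stood clearly below the rest. The acceptor at 135323324, 174.4 kb from the start, had 15, 6, 5 and 6 counts, without a separation of the groups.

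TMEM67 (meckelin), a membrane protein of the transition zone, differed the other way. It had 129 and 210 raw counts in the control libraries and 45 and 69 in the knockdown libraries, or 32.5 ± 7.37 against 16.8 ± 1.24 per 100000 (SD, n = 2). The fit gave a log2 fold change of -0.66 ± 0.37 (SE), on a scale where the median gene stood at -0.26, and did not pass the threshold. Without control replicate 1 the value was -0.92, and without control replicate 2 it was -0.12, where the median gene stood at -0.13. Circles typed as intron held 38.2% of TMEM67 counts. With exon circles only the value was -0.48, where the median gene stood at -0.15. A pair of acceptors 0.2 kb from the gene start had 81, 127, 23 and 26 counts and 29, 35, 4 and 11 counts, lower in both knockdown libraries. Whether sites this close to the gene start are starts of annotated exons was not tested. The most abundant TMEM67 circle, of 28 exons and 2946 nt, had 41, 74, 11 and 18 counts. A circle of 1989 nt starts at an acceptor 31.4 kb from the gene start and had 10, 33, 1 and 7 counts, also lower in both. An acceptor 9.0 kb from the start went the other way, with 1, 7, 14 and 17 counts, and so did a donor 30.5 kb from the start, with 1, 3, 10 and 13.

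RPGRIP1L, which organises the transition zone, had 124, 209, 128 and 212 raw counts, or 26.2, 37.6, 45.3 and 54.3 per 100000. Its log2 fold change was 0.93 ± 0.39 (SE), and it was 0.65 without control replicate 1 and higher than 0.93 without control replicate 2. Its 87 circles did not differ alike: the circle of 13 exons between 53636439 and 53665009 on chromosome 16 had 7, 14, 13 and 27 counts, and the circle of 12 exons with the same donor that begins at 53658878 had 14, 24, 7 and 11. Per 100000 the first was higher in both knockdown libraries and the second was lower in both. INVS (inversin), which defines the segment of the cilium above the transition zone, had 62, 98, 30 and 40 counts and a log2 fold change of -0.27 ± 0.39 (SE), close to the median of all genes. That value was 0.24 without control replicate 2 and 0.27 with exon circles only, and 35.7% of INVS counts were in circles typed as intron. TCTN1, TCTN2, CC2D2A and NPHP4 had between 10 and 22 counts each and none passed the threshold; TCTN3 and B9D1 had 8 and 2, and TMEM231 and MKS1 had no circle.

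At the basal body, ALMS1 and OFD1 were both abundant and behaved differently. ALMS1, a centrosomal protein, had the most counts of all listed genes, 249, 268, 292 and 257, or 52.7, 48.2, 103 and 65.8 per 100000. Both knockdown libraries were higher, with a wide gap between them, and the log2 fold change was 1.05 ± 0.37 (SE), which did not pass the threshold. ALMS1 circles were long. Those that begin at position 73432198 of chromosome 2 include circles of 3 exons and 6336 nt, with 36, 21, 49 and 33 counts, and of 4 exons and 8201 nt, with 19, 22, 45 and 18 counts. The leading ALMS1 circle, of 5 exons and 1766 nt, had 38, 47, 30 and 48 counts, and single-exon rings of 1865 nt (10, 25, 28 and 30 counts) and 1163 nt (18, 35, 18 and 22 counts) were also among the abundant ones.

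OFD1, a protein of the distal centriole, was the steadiest of the abundant genes. It had 120, 146, 70 and 97 raw counts, or 25.4, 26.2, 24.8 and 24.8 per 100000. The log2 fold change was 0.25 ± 0.32 (SE) with TMM scaling and -0.06 with library totals. A single circle, chrX:13744415-13762444, held 50.3% of OFD1 counts, with 48, 80, 36 and 54. For this circle the caller lists 4 internal isoforms, the first of 13 exons, and a length of 2076 nt.

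TBC1D32, a regulator of ciliary Hedgehog signalling, had 95, 206, 149 and 226 raw counts, or 20.1, 37.0, 52.7 and 57.9 per 100000, and a log2 fold change of 1.22 ± 0.44 (SE), which was 0.82 and 2.03 when these were left out. Its gene total hid opposite differences at its acceptors. The acceptor 0.3 kb from the gene start, at position 121334431 of chromosome 6, was used by 18 circles with 78, 119, 18 and 36 counts, or 16.5, 21.4, 6.37 and 9.22 per 100000. It was lower in both knockdown libraries. Whether a site this close to the gene start is the start of an annotated exon was not tested. Each of the other 7 acceptors with at least 20 counts, 12.6 to 92.4 kb from the start, was higher in both. The acceptor at 121321794 had 3, 12, 33 and 29 counts, that at 121310847 had 3, 6, 15 and 30, and that at 121299505 had 0, 5, 19 and 22. The first acceptor thus held 82.1% (exact 95% interval 72.9% to 89.2%) and 57.8% (50.7% to 64.6%) of the TBC1D32 counts in the control libraries. In the knockdown libraries it held 12.1% (7.32% to 18.4%) and 15.9% (11.4% to 21.4%). LCA5 (lebercilin), grouped with TBC1D32 as another ciliary gene, had 11, 24, 8 and 10 counts and a log2 fold change of -0.04 ± 0.67 (SE).

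**Figure D4:**
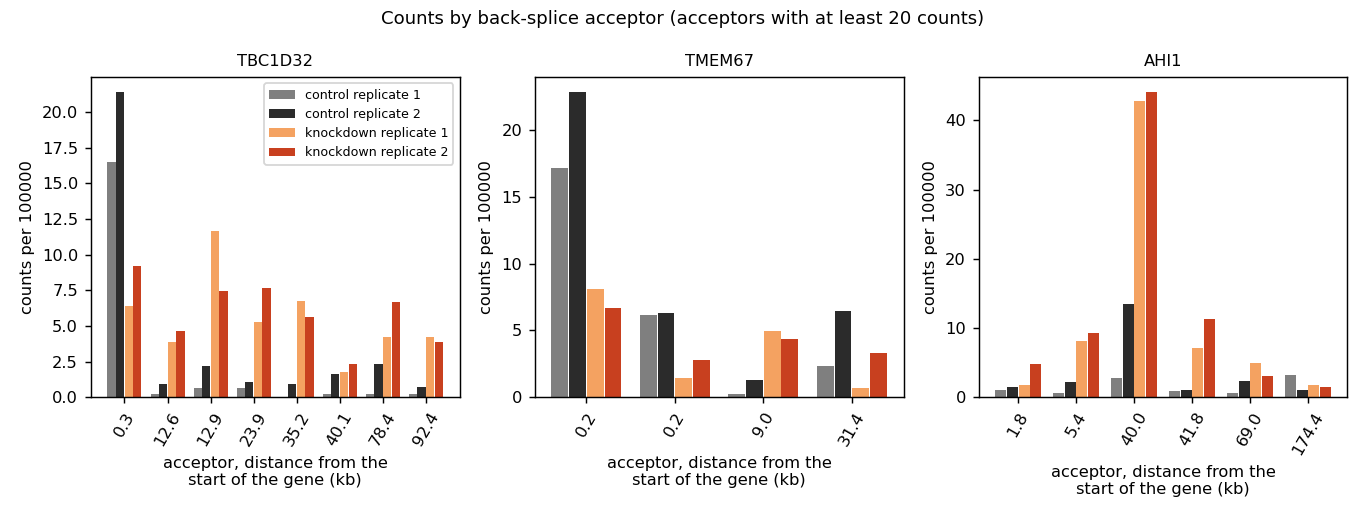
Counts per 100000 in each library for every back-splice acceptor with at least 20 counts of TBC1D32, TMEM67 and AHI1, ordered by distance from the start of the gene (kb). In TBC1D32 and TMEM67 the acceptors at 0.2 to 0.3 kb are lower in both knockdown libraries, and acceptors such as those at 12.9 kb of TBC1D32 and 9.0 kb of TMEM67 are higher; in AHI1 the acceptor at 40.0 kb is the tallest.

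Across all cilium genes, 35 of 68 acceptors with at least 20 counts were higher in both knockdown libraries and 4 were lower in both, against 26.1% and 28.7% of all 8638 acceptors of that depth. Of 65 donors 40 were higher and 11 lower, against 26.1% and 28.2% of 9524. Sites of 1 gene share its transcripts and are not independent, and the genes were listed with this contrast known. The 4 lower acceptors were those of TBC1D32 and TMEM67 at 0.2 to 0.3 kb and 1 of IFT80, at 14.6 kb from the gene start, with 14, 19, 5 and 7 counts.

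Single circles were fitted in the same way, over 21576 circles with at least 10 counts, of which 130 belonged to cilium genes. With edgeR 0 passed an adjusted p of 0.05, among the cilium genes or elsewhere (0%), while 35 of the 130 and 2925 of all circles had an unadjusted p under 0.05. Of the 35, 31 were higher and 4 lower in the knockdown. That split was not counted for the 2925 of all circles, and the genes were listed with this contrast known. Nothing is therefore read from it. DESeq2 passed 15 of the 130, and 1052 of all circles. Of 27 cilium gene circles with at least 40 counts, 17 were higher in both knockdown libraries and 4 lower in both, against 29.7% and 28.9% of all 4944 circles of that depth. The 4 lower ones were a pair of TMEM67 and 1 each of TBC1D32 and RPGRIP1L.

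**Figure D5:**
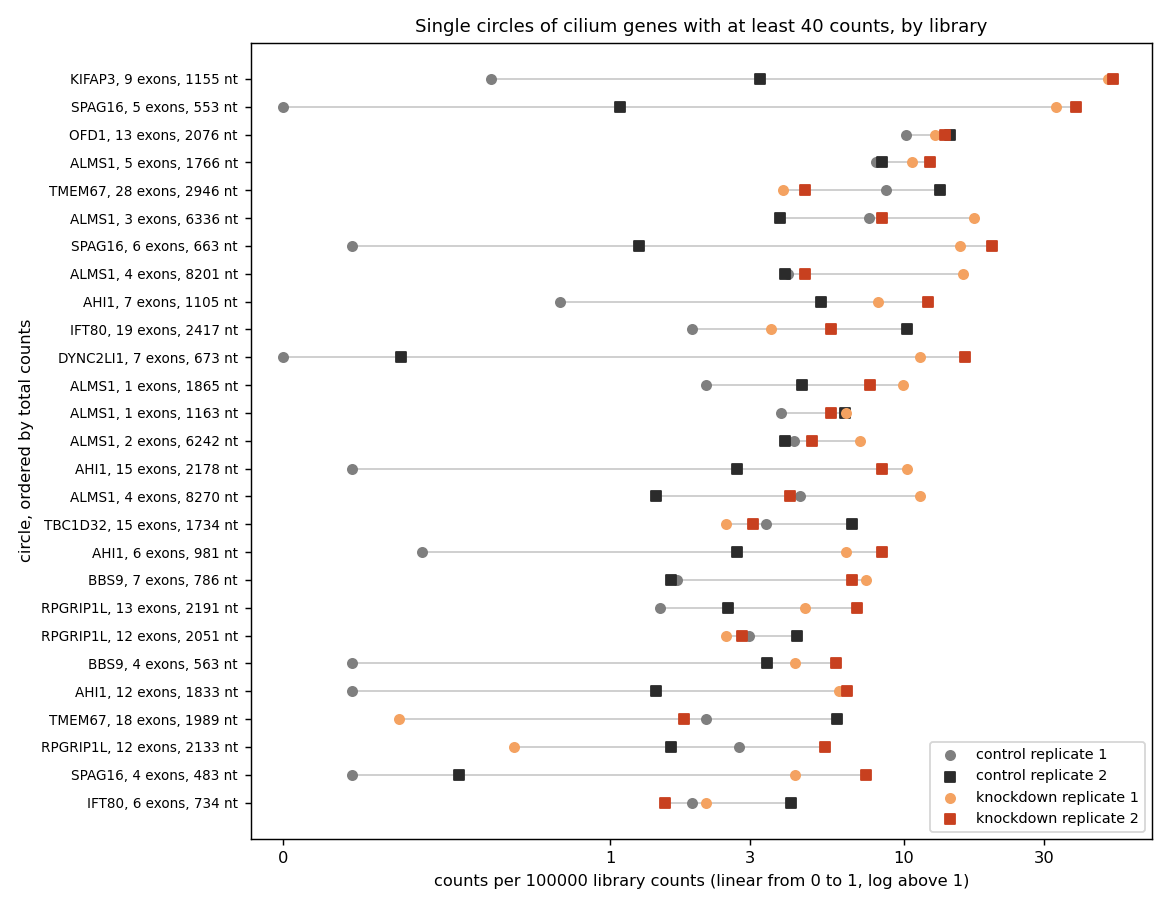
Level of each of the 27 cilium gene circles with at least 40 counts in each library, in counts per 100000, on an axis that is linear from 0 to 1 and logarithmic above 1; the grey line joins the lowest and highest library. The KIFAP3 circle of 1155 nt, the SPAG16 circles of 553 and 663 nt and the DYNC2LI1 circle of 673 nt have the longest lines, and the OFD1 circle of 2076 nt has a short one.

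How far 1 circle dominated its gene was measured in the 24 cilium genes with at least 40 counts. The most abundant circle of each gene was picked by counts over all 4 libraries, knockdown included. Its share in the knockdown libraries is thus partly set by that choice. These circles held 18.9% and 24.7% of the pooled counts of the 24 genes in the control libraries. In the knockdown libraries they held 29% and 32.1%. That direction came from SPAG16, KIFAP3 and DYNC2LI1: without them, a choice made after seeing the data, the shares were 19.1%, 24.3%, 16.1% and 19.1%.

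Circles of the cilium genes had features that the rule did not use, given here as descriptions. Weighted by counts, their median length was 1576 nt against 1299 nt for all circles of named genes, and exon circles of the cilium genes joined a median of 8 exons against 6. A tested cilium gene had a median of 19 circles and 100 counts, and a tested host gene of any kind 12 circles and 51 counts. Circles typed as intron made up 11.6% of the counts of cilium genes and 13.7% of the counts of all named genes. Of the 889 circles, 353 were seen in 1 library only (39.7%, against 58.3% of all circles) and 108 in all 4 (12.1% against 8.97%). All circles here means every type, antisense included, which the 889 leave out. Circles with 1 to 9 counts were 759 of the 889 and held 34.1% of the counts, which limits how finely the rarer genes can be described.

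Of 102 further genes with known roles in cilia, 67 had circles and 48 had enough counts to be tested. With edgeR 0 of the 48 passed the threshold in either direction, and their median log2 fold change was -0.23, near the -0.26 of all genes. The log2 fold changes of the 48 ranged from -5.95 to 3.52, and the highest was close to the 3.58 of DYNC2LI1. In 10 of the 48 the knockdown libraries were both higher and in 22 both lower, against the 15.3% and 36.7% of all genes given above. CPLANE1, TOGARAM1 and WDPCP were among those with the most counts. CPLANE1 and WDPCP, which help to recruit the transport trains at the basal body, had 433, 646, 340 and 480 raw counts and 288, 238, 69 and 108 counts, with log2 fold changes of 0.52 and -0.66. TOGARAM1, which regulates the microtubules of the axoneme, had 106, 374, 277 and 346 counts and 1.30 ± 0.57 (SE).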

How the data were processed

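The authors deposited 1 table of raw counts with 211599 rows, 1 row for each back-splice position, and its values are whole numbers that were not normalized. A row can list several internal isoforms, whose counts are not separated. Exon numbers given here count the segments of the first isoform listed. Each row names CIRI-long, which calls circles in long reads, per the file headers. The caller's version and the aligner are not given in the sources used here; the submitters' processing notes name GRCh38.p14 and DESeq2 without a role. A second deposited table holds the same counts scaled to each library's total and was not used. The amplified cDNA carries no molecular identifiers, and counts are therefore not counts of independent molecules.

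Counts were summed per gene over rows whose gene names contain it exactly and whose type is not antisense. A row that names several genes counts for each. Tests used edgeR 4.0.16 (glmQLFit and glmQLFTest, default dispersion method, TMM factors) in R 4.3.3 with limma 3.58.1, on features with at least 10 counts over the 4 libraries, with Benjamini-Hochberg adjustment over all features tested and a threshold of 0.05. The scripts were tested on simulated data. A log2 fold change is the edgeR coefficient and its standard error comes from the same fit. The labels call the 2 libraries of a group biological replicates, and with 2 in each group the p-values measure only the spread between these. Same-numbered libraries deviated together with a correlation of 0.0798 over 4764 host genes, and no label ties a number to a shared culture or day, so numbers were treated as names.

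The members, their grouping by role and the list of further cilium genes were chosen with earlier results of these data known. Members with at least 100 counts are named with every library's count, the others by fewer values, together with the leading circle of each and the member circles of most counts. Of the further cilium genes, the 4 of most counts were to be named, and 1 of them is not reported here. Acceptors and donors, the smaller members named and the promoter motif were picked after their values were seen. Acceptor and donor positions are the ends of circles as the caller gives them, and were not compared with annotated exon boundaries. Gene starts and promoter windows come from RefSeq (GRCh38.p14), in which 44 of the 45 symbols were found; 867 of 889 circles lay within 1000 nt of the RefSeq span of their gene. The alternatives were DESeq2 1.42.0, other scalings, count minimums, the newer dispersion method, a replicate block, exon circles only, other assignments of circles to genes and leaving out each library.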

Additional observations from a re-analysis of the deposited data

How the results depend on the processing

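SPAG16, KIFAP3 and DYNC2LI1 kept their direction in 16 of 16 settings. Their log2 fold changes were 4.05 to 4.92, 3.58 to 5.16 and 3.19 to 4.37. With all 4 libraries each passed the threshold in every setting but the newer dispersion method. None of them passed when a knockdown library was left out. The settings refit the same libraries and are not separate support. Cilium genes past the threshold numbered 3 in the fit reported, 4 with DESeq2, with every gene kept, with either stricter count minimum, with circles of 1 gene and with the replicate block (the fourth being AHI1), 0 with the newer dispersion method and 0 to 14 when 1 library was left out. Over all host genes the count of 37 became 60 with DESeq2 size factors in edgeR, 185 with DESeq2, 369 when every gene was kept, 116 under a minimum of 5 counts in 2 libraries, 108 under one of 40 counts, 0 with the newer dispersion method (1253 had an unadjusted p under 0.05), 81 with exon circles only, 88 with circles of 1 gene, 78 with the first gene named and 0 to 2775 when 1 library was left out. Single circles, 0 of which passed, became 1052 with DESeq2 (15 of cilium genes), 471 when every circle was kept (5), 1422 under a minimum of 5 counts in 2 libraries (19), 562 under one of 40 counts (7), 302 with exon circles only (5) and 0 to 6421 (0 to 50) when 1 library was left out. With the replicate number as a block, 300 host genes passed (259 higher, 41 lower), 4 of them cilium genes, and 1620 circles, 19 of cilium genes; the numbers are not known to pair the libraries. The causes of these differences between settings were not tested.

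The log2 ratio of the summed cilium gene level, 0.87, was 1.16 with TMM factors, 0.69 to 1.06 when 1 library was left out and 0.49 without SPAG16, KIFAP3 and DYNC2LI1, an alternative added after seeing the data. The difference in the share of the leading circle, 8.77 percentage points, was 5.83 to 11.7 when 1 library was left out and reversed to -4.13 without these 3 genes. Signs that turned under some setting were those of IFT80, IFT88, BBS2, BBS9, WDR35, INVS and OFD1. Most circles of the cilium genes had few counts, and whether changes in the rarer ones could be detected at this depth was not tested.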

Other observations

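Circles typed as antisense to a cilium gene were left out of the gene sums. There were 58 such circles, with 68 and 23 counts in the control libraries and 18 and 23 in the knockdown libraries, so 1 library held most of them and the groups overlapped per 100000. The listed name TTC26 is an older symbol of IFT56, another subunit of IFT-B. Under the name IFT56 the table holds 5 circles with 1, 4, 2 and 3 counts in the order control 1, control 2, knockdown 1 and knockdown 2, which the rule does not take in.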
